A study of Canis lupus familiaris with 20 samples.

Results

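A cluster of 3 neighbouring genes on dog chromosome 2, ENSCAFG00000032344, ENSCAFG00000014639 and ENSCAFG00000031290, were followed in epiphyseal cartilage of the T12 vertebra. They were chosen by their Ensembl identifiers, 3 of 24580 genes in the count table, because earlier results of these data had shown how they varied across the 4 groups. Their position fits that of the genes for complement C1q, and that working name rests on position alone. All 3 passed the filter on low counts, which kept 14550 genes. The groups were heterozygous control dogs at postnatal day 9 and day 14, and MPS VII dogs at the same ages, with 5 animals and 5 libraries in each. MPS VII is mucopolysaccharidosis VII, an inherited disease of lysosomes in which glycosaminoglycans accumulate. The dogs were of a naturally occurring canine model: MPS VII dogs were homozygous for a missense change (R166H) in GUSB, and the controls carried 1 copy of the same change. Cranial and caudal tissue next to the growth plate was pooled within each animal, so that 1 library stands for both ends of 1 vertebra. The study addressed the failure of endochondral ossification, the replacement of cartilage by bone, in this disease.

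C1q is the recognition subunit of the C1 complex, which starts the classical pathway of complement. It is assembled from A, B and C chains that are encoded by separate, neighbouring genes, and it binds immune complexes, dying cells and other debris and marks them for removal. Unlike most complement proteins, which the liver supplies, C1q is made mainly by macrophages and related myeloid cells, and its transcripts are widely used as macrophage markers in tissue. In a RefSeq table of another dog assembly, UU_Cfam_GSD_1.0, the protein-coding genes C1QB, C1QC and C1QA follow one another on chromosome 2 in that order, between EPHB2 and EPHA8, which encode Eph receptors. That table matched 0 of the Ensembl identifiers, so none of the 3 members is given a chain name here. For the same reason the markers of macrophages, of cartilage and of other cell types, the other complement genes and the level of GUSB were not analysed here. No sequence of the members was used here either.

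The cluster ran from 76649363 to 76670143 on chromosome 2 in CanFam3.1, a stretch of 20781 bases, with every member on the minus strand. ENSCAFG00000032344, the low-coordinate gene, lay at 76649363 to 76655660 and had 3 exons with 2271 bases in all. ENSCAFG00000014639, the middle gene, lay at 76659987 to 76664962 and had 3 exons with 1599 bases. ENSCAFG00000031290, the high-coordinate gene, lay at 76667676 to 76670143 and had 2 exons with 1418 bases. The gaps between them were 4326 and 2713 bases. In each member the longest exon was the one at the lowest coordinate, which on the minus strand is the last of the gene. It held 1798, 888 and 1198 bases in the low-coordinate, middle and high-coordinate gene. No other annotated gene lay between the members, and the nearest on either side were 36769 bases below and 35280 bases above.

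**Figure D1:**
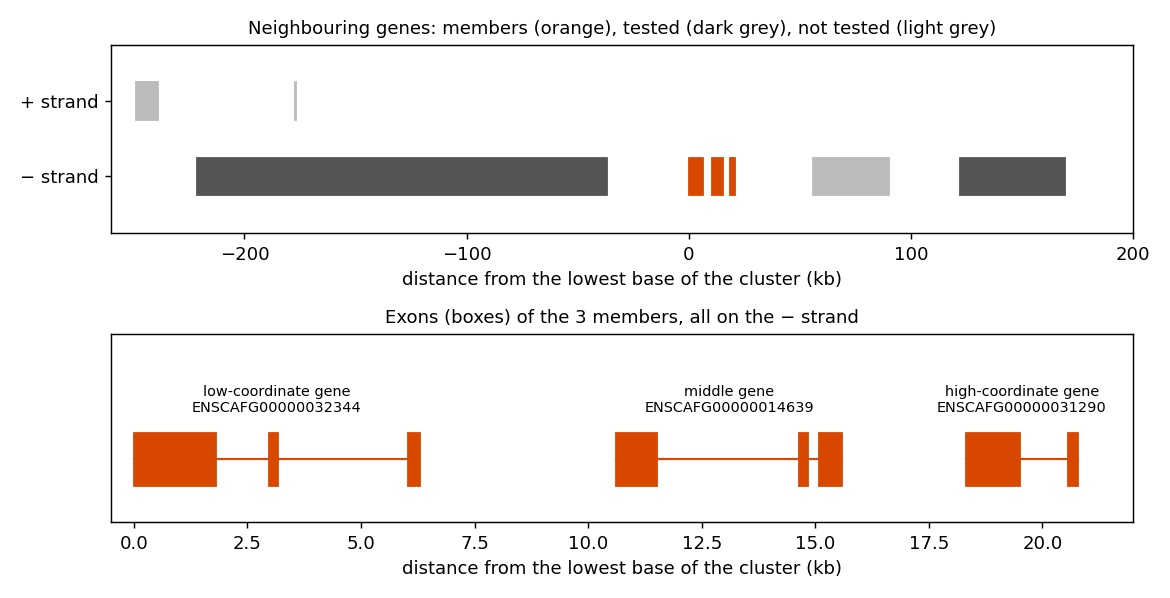
Map of the cluster in kb from its lowest base. The upper panel shows annotated genes from 260 kb below to 200 kb above that base by strand, with the 3 members in orange, tested neighbours in dark grey and untested ones in light grey; the lower panel shows the exons of the members as boxes, with gaps of 4326 and 2713 bases between the genes.

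Total counts per library ran from 15772761 to 28028365, with 21419930 to 28028365 at day 9 and 15772761 to 22471728 at day 14, so depth went with age. Levels are given in CPM, normalised read counts relative to library sizes that were scaled with TMM (trimmed mean of M values), and levels of different genes are compared only per kb of exon. The scaling factors also went with age in controls, at 0.760 to 1.02 at day 9 and 1.04 to 1.29 at day 14. MPS VII day 9 replicate 3 stood apart from the other libraries: its log2 CPM correlated with the rest of its group at a median r of 0.921 across genes, against 0.962 to 0.980 in the other 19 libraries. Means and fold changes of the members that include it are given with and without it, as are calls of other genes that change without it. Libraries stand for separate animals, as their labels have it.

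The members were at their lowest in young control cartilage and more abundant in every other group. Their summed level was 17.0 CPM ± 2.17 in controls at day 9 and 34.9 CPM ± 10.2 in controls at day 14 (SD, n = 5 each). For MPS VII dogs it was 63.5 CPM ± 25.3 at day 9 and 63.9 CPM ± 21.8 at day 14. The MPS VII dogs of day 9 thus already stood above the older controls in the mean, although the ranges of those groups overlapped, at 39.6 to 103.8 CPM against 27.9 to 51.8 CPM. Without replicate 3 the mean of MPS VII day 9 was 52.4 CPM ± 12.7 (SD, n = 4). In bulk tissue, more cells of a type and more RNA per cell cannot be told apart.

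The low-coordinate gene held 5.72, 4.27, 4.49, 4.99 and 3.40 CPM in the 5 control libraries of day 9, in the order of their replicate numbers. In controls of day 14 it held 7.98, 17.8, 10.4, 8.44 and 8.21 CPM. The younger controls all lay below the older ones, and replicate 2 of the older controls was far above the rest of its group. The MPS VII libraries held 13.5, 14.9, 31.3, 15.3 and 8.92 CPM at day 9. At day 14 they held 12.03, 13.8, 9.71, 19.0 and 6.50 CPM. Replicate 3 stood highest at day 9, and the MPS VII libraries of both ages overlapped each other and the controls of day 14. The group means were, from low to high, in the order control day 9, control day 14, MPS VII day 14 and MPS VII day 9, from 4.57 CPM ± 0.859 through 10.6 CPM ± 4.14 and 12.2 CPM ± 4.67 to 16.8 CPM ± 8.50 (SD, n = 5 each). Only the youngest controls were separated from the next group in that order. Without replicate 3 the mean of MPS VII day 9 was 12.9 CPM, and without replicate 2 the mean of control day 14 was 8.77 CPM.

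The middle gene held 7.95, 6.66, 5.20, 7.42 and 5.37 CPM in controls of day 9. In controls of day 14 it held 10.97, 17.5, 12.5, 11.1 and 10.4 CPM. These groups did not overlap, and replicate 2 was again the highest of the older controls. MPS VII dogs had 18.2, 18.04, 37.9, 26.3 and 14.7 CPM at day 9. At day 14 it held 23.3, 27.5, 18.4, 26.8 and 12.5 CPM. The MPS VII libraries of both ages overlapped, and at day 14 replicate 5 lay among the controls of that age. The means of controls were 6.52 CPM ± 1.22 at day 9 and 12.5 CPM ± 2.91 at day 14, and those of MPS VII dogs were 23.05 CPM ± 9.35 and 21.7 CPM ± 6.28. Without replicate 3 the mean of MPS VII day 9 was 19.0 CPM.

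The high-coordinate gene held 6.49, 5.46, 5.55, 5.68 and 6.18 CPM in controls of day 9. In controls of day 14 it held 9.60, 16.5, 14.5, 9.09 and 9.34 CPM. The younger controls lay close together, and the older ones formed a low set of 3 libraries and a higher pair. MPS VII libraries had 20.8, 17.1, 34.5, 29.7 and 15.99 CPM at day 9. At day 14 it held 39.3, 40.1, 20.9, 35.6 and 14.1 CPM. Here replicates 1, 2 and 4 of day 14 were above every other library of the series, while replicate 5 lay within the range of the controls of that age. The means of controls were 5.87 CPM ± 0.442 and 11.8 CPM ± 3.46, and those of MPS VII dogs were 23.6 CPM ± 8.13 and 29.99 CPM ± 11.8, so that this gene alone among the members had its highest mean in MPS VII dogs of day 14. Without replicate 3 the mean of MPS VII day 9 was 20.5 CPM.

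**Figure D2:**
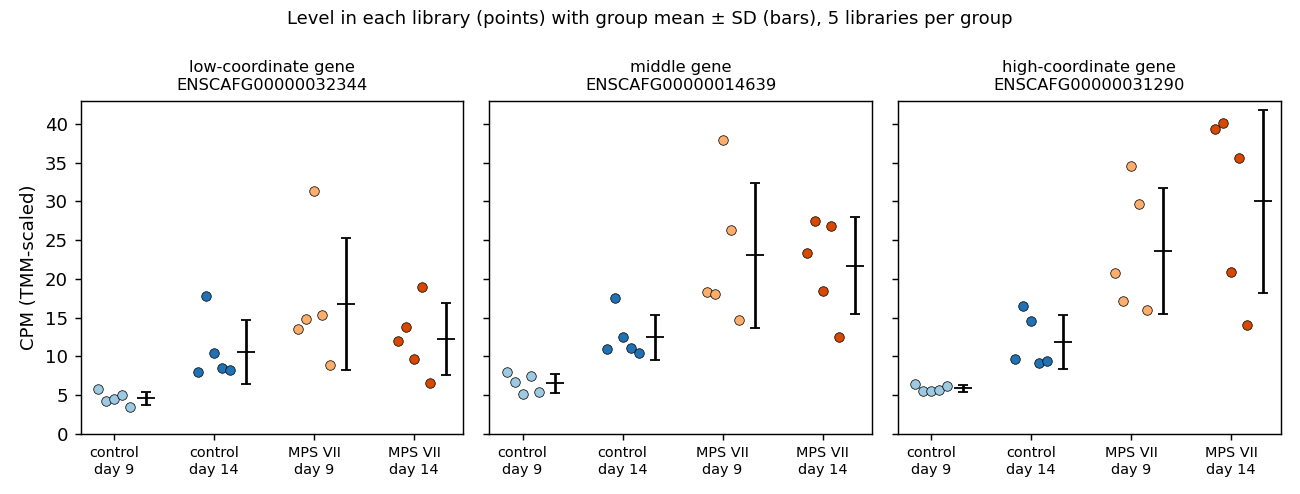
CPM of each member (1 panel per gene) in each of the 20 libraries, as points in the order of replicate numbers from left to right within a group, with the group mean ± SD as bars. Control day 9 is lowest in every panel, at 3.40 to 7.95 CPM over the 3 genes, and the high-coordinate gene reaches 40.1 CPM in MPS VII day 14.

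The spread between animals was mostly wider than counting error. The members were counted 76 to 960 times per library, and the coefficient of variation between animals was 18.7% to 50.6% in 11 of the 12 combinations of gene and group. Counting alone would give 4.46% to 10.1% from the same counts, or up to 14.2% if both mates of each pair had been counted singly. The exception was the high-coordinate gene in controls of day 9, with a coefficient of variation of 7.52% against 8.78% expected from counting. These intervals of counting error do not cover copies made by PCR.

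Per kb of exon, the low-coordinate gene was the least abundant of the members in every group. In controls of day 9 it stood at 2.01 CPM per kb ± 0.378, against 4.08 ± 0.763 for the middle gene and 4.14 ± 0.311 for the high-coordinate gene. In MPS VII dogs of day 14 the same levels were 5.37 ± 2.05, 13.6 ± 3.93 and 21.1 ± 8.33 CPM per kb (SD, n = 5 each). Placed among all tested genes by CPM per kb, the low-coordinate gene lay at the 24.02 to 32.1 percentile in controls of day 9 and at the 41.6 to 72.7 percentile in MPS VII dogs of day 9. In MPS VII dogs of day 14 it lay at the 35.3 to 61.2 percentile, a range that overlapped the 39.2 to 59.8 of controls of that age. The high-coordinate gene lay at the 41.5 to 45.6 percentile in controls of day 9 and at the 53.7 to 70.6 percentile in controls of day 14. It lay at the 69.6 to 84.1 percentile in MPS VII dogs of day 9 and at the 65.7 to 87.9 percentile in those of day 14. Both of these ranges overlapped that of controls of day 14.

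The comparison of genotypes at day 9 addressed how cartilage of MPS VII dogs differed at the earlier age. All 3 members were higher in MPS VII dogs, and their libraries lay above every control library of that age. The log2 fold changes were 1.87 ± 0.32 (SE) for the low-coordinate gene, 1.82 ± 0.25 for the middle gene and 2.01 ± 0.28 for the high-coordinate gene, or 3.67-fold, 3.53-fold and 4.02-fold. Each lay above at least 98.4% of the tested genes, whose median was 0.02. By edgeR's quasi-likelihood test with an adjusted p under 0.05, 3 of 3 members were called higher, where 6.18% of all tested genes were, and groups failed to overlap in the higher direction in 5.26% of them. The members were chosen with these values known, so nothing is read from those counts. Without replicate 3 of the MPS VII dogs, the log2 fold changes were 1.52, 1.56 and 1.82.

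At day 14 the difference between genotypes was smaller and unequal along the cluster. The log2 fold change was 0.21 ± 0.31 (SE) for the low-coordinate gene, 0.80 ± 0.24 for the middle gene and 1.35 ± 0.27 for the high-coordinate gene, which are 1.16-fold, 1.74-fold and 2.54-fold. The median over all tested genes was 0.03. In the same edgeR fit 2 of 3 members were called higher, the middle and the high-coordinate gene, where 11.3% of tested genes were. The libraries of both genotypes overlapped for each member, whereas 9.27% of tested genes had all MPS VII libraries above all controls. Without MPS VII day 14 replicate 4 the value of the low-coordinate gene was -0.0032, and the middle gene was no longer called without replicate 2 or 4 of that group, at 0.69 and 0.72. The high-coordinate gene was called whichever library was left out, at 1.21 to 1.52. The members were chosen with these values known, so their calls at day 14 are description only.

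With age the controls gained these transcripts. From day 9 to day 14 the log2 fold change in controls was 1.20 ± 0.32 (SE) for the low-coordinate gene, 0.93 ± 0.25 for the middle gene and 1.00 ± 0.27 for the high-coordinate gene, or 2.30-fold, 1.91-fold and 2.01-fold. The libraries of the ages did not overlap for any member. All 3 were called higher by edgeR, in a comparison that called 21.8% of tested genes higher and separated 20.2% of them in that direction. Calls of this kind were thus common in that comparison, and depth differed between the ages as well. Here too the members were chosen with the values known, so nothing is read from their calls. Without control day 14 replicate 2, the highest older control for every member, the values were 0.95, 0.80 and 0.87.

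The same ages did not separate the libraries of MPS VII dogs for any member. The log2 fold change was -0.46 ± 0.30 (SE) for the low-coordinate gene, -0.09 ± 0.24 for the middle gene and 0.34 ± 0.26 for the high-coordinate gene. By edgeR 0 of 3 were called, as by DESeq2 and at an unadjusted p under 0.05, where 22.7% of tested genes were called in either direction, and 11.5% of them had ages that did not overlap. A missed threshold does not show that the ages were alike: intervals of 2 SE on either side ran from -1.07 to 0.14, from -0.56 to 0.39 and from -0.18 to 0.87. Leaving out replicate 3 of day 9 moved the values to -0.09, 0.19 and 0.54.

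The age changes of the genotypes were then compared directly. The MPS VII age change minus that of controls was -1.67 ± 0.44 (SE), -1.02 ± 0.34 and -0.66 ± 0.38 on the log2 scale for the low-coordinate, middle and high-coordinate gene. All lay below the median of tested genes, -0.01. Of the 3, the low-coordinate gene was called lower by edgeR, where 2.43% of tested genes were. Without MPS VII day 9 replicate 3 its value was -1.31 and without control day 14 replicate 2 it was -1.37, and the call was lost in the latter case and in 11 other fits that left out 1 library. The middle and high-coordinate values were -0.76 and -0.48 without MPS VII day 9 replicate 3, and neither was called with or without it. In both fits the values follow the order of the genes along the chromosome, which is also the order of their exon lengths. The genotype values at day 14 and the age values in MPS VII dogs followed it as well. All of these comparisons share the MPS VII libraries of day 14, so they do not show the order separately. The comparisons without those libraries did not follow it: genotype at day 9 (1.87, 1.82 and 2.01) and age in controls (1.20, 0.93 and 1.00). A part of position was not tested.

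**Figure D3:**
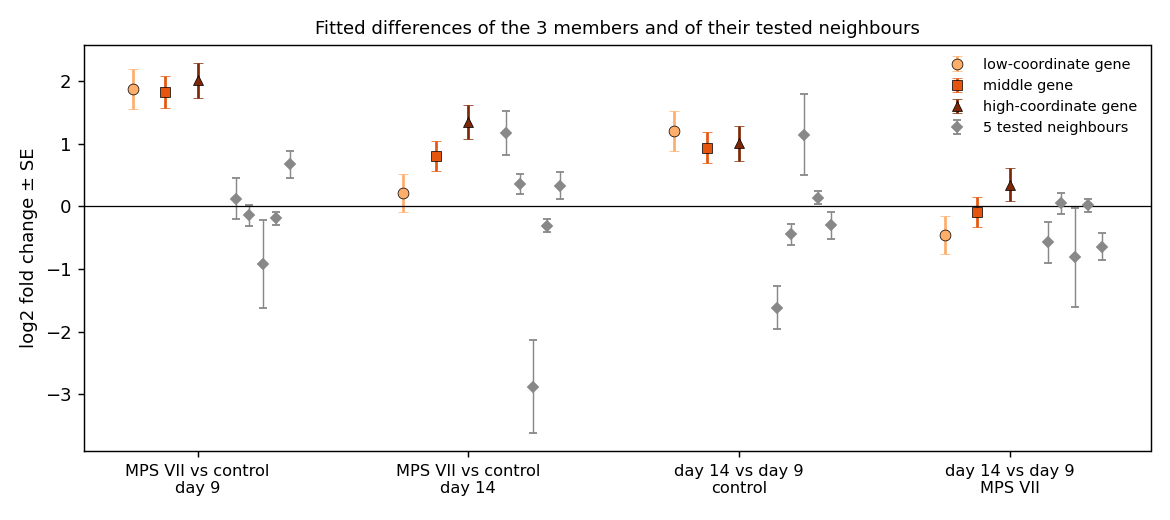
Fitted log2 fold change ± SE of the 3 members (orange to brown) and of their 5 tested neighbours (grey) in 4 comparisons. The members lie together at 1.82 to 2.01 for genotype at day 9 and spread from 0.21 to 1.35 at day 14 in the order of the genes.

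The balance between the members was examined within each library, where depth and scaling cancel. Per kb of exon, the high-coordinate gene exceeded the low-coordinate gene by a median ratio of 1.98 in controls of day 9, with a range of 1.82 to 2.91. The median was 1.82 in controls of day 14, with a range of 1.49 to 2.23. It was 2.46 in MPS VII dogs of day 9, between 1.77 and 3.0999, and 3.47 in those of day 14, between 3.01 and 5.23. All 5 MPS VII libraries of day 14 lay above all 10 control libraries in this ratio, and they overlapped the MPS VII libraries of day 9. The middle gene exceeded the low-coordinate gene by a median ratio of 2.11 and 1.79 in controls and of 1.92 and 2.73 in MPS VII dogs at day 9 and day 14. Between the high-coordinate and the middle gene the medians were 0.925 and 1.01 in controls and 1.23 and 1.498 in MPS VII dogs. Of the summed level per kb, the low-coordinate gene made up 20.3% to 25.7% in controls of day 14 and 11.1% to 16.6% in MPS VII dogs of that age. The high-coordinate gene made up 37.6% to 45.2% and 48.1% to 58.2%. These ratios come from the values the members were chosen on and were not tested.

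**Figure D4:**
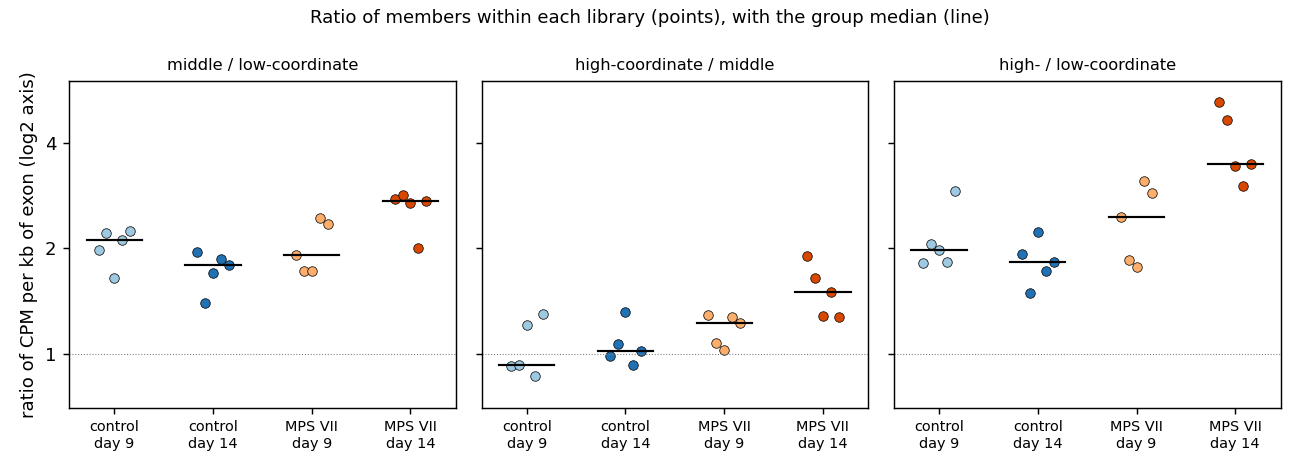
Ratio of CPM per kb of exon between pairs of members within each of the 20 libraries (points, log2 axis), with the median of each group as a line. For the high- against the low-coordinate gene, MPS VII day 14 lies at 3.01 to 5.23 and control day 14 at 1.49 to 2.23.

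A property of the libraries moved with the members in MPS VII dogs of day 14. Among counts from 1 to 199, the share of even numbers, which rises when the mates of a read pair are counted one by one, was 65.2%, 68.5% and 66.5% in replicates 1, 2 and 4, whose summed level was 74.7, 81.4 and 81.4 CPM. It was 74.8% and 73.5% in replicates 3 and 5, with 49.0 and 33.1 CPM. In MPS VII dogs of day 9 the shares were 71.2% to 76.4%, and replicate 3, with the highest summed level at 103.8 CPM, also had the highest share. Controls had shares of 73.2% to 76.3% at day 9 and 67.9% to 72.8% at day 14. The part of this property in the results was not tested.

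The variation between animals of 1 group, which was not what the members were chosen on, was shared by all 3 genes. After the group means were taken from log2 CPM, the deviations of the low-coordinate and the middle gene correlated over the 20 libraries with r = 0.927 (Pearson) and rho = 0.862 (Spearman) (permutation p = 1e-05 for each, the smallest that 100000 resamples give, two-sided; adjusted p = 1.5e-05 over 3 pairs). The middle and the high-coordinate gene correlated with an r of 0.884 and a rho of 0.838 (permutation p = 1e-05 for each, adjusted p = 1.5e-05). The genes at the ends of the cluster correlated with an r of 0.814 (permutation p = 4e-05, adjusted p = 4e-05) and a rho of 0.833 (permutation p = 2e-05, adjusted p = 2e-05). Libraries high for one member were thus high for the others. With 1 library per animal, the animal and its library cannot be told apart. For each pair, r was taken again without the 2 libraries in which the lower-coordinate gene of the pair was farthest from its median deviation. Extremes of the other gene were not used in that choice. The values were 0.885, 0.832 and 0.767 in the same order (permutation p = 1e-05, 9e-05 and 0.00029). MPS VII day 9 replicate 3 was among those left out in each case, with control day 14 replicate 2 or MPS VII day 14 replicate 5. Both genes of a pair share the scaling of their library, and deviations from 4 fitted means are not fully independent. The permutations moved deviations over all 20 libraries and not within groups, although the groups differed in spread. The coefficient of variation was 7.52% to 18.8% over the members in controls of day 9 and 34.4% to 50.6% in MPS VII dogs of day 9. The permutation p-values may therefore be too small.

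**Figure D5:**
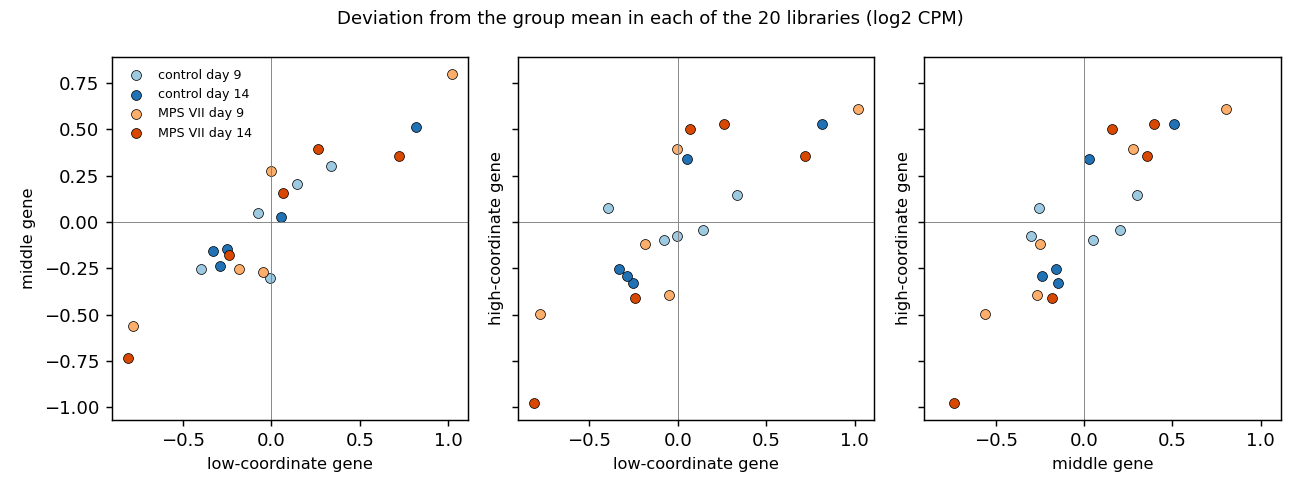
Deviation of log2 CPM from the group mean in each of the 20 libraries, for the 3 pairs of members, coloured by group. Libraries high for one gene are high for the other in each panel, with r of 0.927 for the low-coordinate and middle gene, 0.814 for the low- and high-coordinate gene and 0.884 for the middle and high-coordinate gene.

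The genes next to the cluster were taken by position alone, 5 on each side. Of these 10, 5 passed the filter and 5 did not, among them the adjacent gene from 76705424 to 76739259, with 2 counts over all 20 libraries. At day 9 0 of the 5 tested neighbours were called between genotypes by edgeR (1 at an unadjusted p under 0.05, 1 by DESeq2), with log2 fold changes from -0.92 to 0.67, where 8.38% of tested genes were called in either direction. The gene from 77212092 to 77212523 had the highest of these, 0.67 ± 0.22 (SE, edgeR adjusted p = 0.0593), with 100.2 CPM in MPS VII replicate 3 and 32.6 to 44.8 CPM in the others. Without replicate 3 the value was 0.26 (edgeR adjusted p = 0.145). It was called higher in the DESeq2 fit (adjusted p = 0.0325) and without MPS VII day 9 replicate 1, 2 or 5, fits that all hold replicate 3.

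The nearest tested gene, from 76428203 to 76612593, fell with age in controls from 4.18 CPM ± 1.51 to 1.35 CPM ± 0.354 (SD, n = 5 each). Its log2 fold change was -1.62 ± 0.34 (SE, edgeR adjusted p = 0.000736), opposite in sign to the members. At day 14 it was higher in MPS VII dogs, by 1.17 ± 0.34 (edgeR adjusted p = 0.0176; 0.0562 as the adjusted p without control day 14 replicate 4). On the other side, the gene from 76771456 to 76818727 fell with age in controls by 0.45 on the log2 scale (edgeR adjusted p = 0.0331), a call that was lost in 12 of its 26 alternatives. Of the 5 tested neighbours, 0 were called higher and 2 lower with age in controls by edgeR, where 21.8% and 20.7% of tested genes were. The gene from 77116779 went from 0.593 to 1.33 CPM there, by 1.14 ± 0.65 (SE, edgeR adjusted p = 0.160). It was called higher in the edgeR fit of only the groups compared (adjusted p = 0.0149). Between genotypes at day 14, 1 neighbour was called higher and 2 were called lower in MPS VII dogs, where 11.3% and 10.7% of tested genes were. Of the lower ones, the gene from 77153276 to 77169947 differed by -0.31 on the log2 scale (adjusted p = 0.0338 by edgeR), and its call was lost in 9 of 26 alternatives. In MPS VII dogs 1 neighbour was called lower with age, where 9.92% of tested genes were. It was the gene from 77212092, at -0.65 (edgeR adjusted p = 0.0355), and its call was lost in 8 of 26 alternatives, with a value of -0.21 without MPS VII day 9 replicate 3 (adjusted p = 0.122). In the difference of the age change 0 were called by edgeR or DESeq2 (2 at an unadjusted p under 0.05), where 3.26% of tested genes were called in either direction. Without MPS VII day 9 replicate 3, the neighbours called were 3 lower with age in controls, 3 higher and 2 lower at day 14, and 1 lower with age in MPS VII dogs, which was then the gene from 76428203 (-0.77, edgeR adjusted p = 0.0418). Over fits that left out 1 library, 5186 to 7246 genes were called with age in controls, against 6187 with all libraries. For genotype at day 14 there were 2448 to 4382 against 3202, and with age in MPS VII dogs 2227 to 3902 against 3297. The shares given above are those of the fit with all libraries, so nothing is read from the neighbour counts without replicate 3. The gene from 77116779 to 77127111 was lower in MPS VII dogs of day 14, at 0.171 CPM ± 0.175 against 1.33 CPM ± 0.285 (log2 fold change -2.88 ± 0.74, edgeR adjusted p = 0.00695). It was near the floor, with 265 counts over all 20 libraries and 0 to 0.459 CPM in MPS VII dogs of day 14. Between genotypes at day 9 it was called lower without MPS VII replicate 1 (-2.24, edgeR adjusted p = 0.0471), but not with all libraries (-0.92).

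Genes whose pattern was most like that of the cluster were found by the correlation of log2 CPM with the mean of the 3 members over the 20 libraries, which carry the group differences as well as the variation within groups. This is a description, since libraries of 1 group are alike for many genes. Outside the cluster, 13 of 14547 tested genes reached an r over 0.9, and the median gene had an r of 0.01. The 6 highest, none of them on chromosome 2, had r from 0.916 to 0.940. The most alike was a gene on chromosome 3 from 57451365 to 57464239, whose means in controls were 0.998 CPM ± 0.338 at day 9 and 3.26 CPM ± 1.02 at day 14, and in MPS VII dogs 8.63 CPM ± 8.31 and 11.8 CPM ± 4.95. Its mean in MPS VII dogs of day 9 was 4.83 CPM ± 0.573 without replicate 3 (SD, n = 4). A gene on chromosome 38 from 21054894 to 21060947 (r = 0.922) stood at 4.95 CPM ± 1.62, 18.1 CPM ± 4.54, 53.3 CPM ± 16.5 and 87.2 CPM ± 24.7 in the same order of groups. A gene on the X chromosome from 50843008 to 50881664 (r = 0.924) stood at 2.27 CPM ± 0.596, 6.94 CPM ± 0.875, 22.3 CPM ± 11.2 and 31.7 CPM ± 12.3, again in that order. Without replicate 3 the MPS VII day 9 means of the genes on chromosome 38 and X were 45.7 CPM ± 7.16 and 17.0 CPM ± 1.59 (SD, n = 4 each). These 3 genes had their highest means in MPS VII dogs of day 14, like the high-coordinate member, and so had the other 3. The other 3 lay on chromosome 18 from 49802351 to 49813925 (r = 0.929), chromosome 1 from 93645049 to 93688867 (r = 0.927) and chromosome 17 from 59403185 to 59411788 (r = 0.916). In MPS VII dogs of day 14 their means were 4.46, 2.61 and 26.3 CPM. At day 9 they were 2.83, 1.24 and 25.75 CPM, or 2.30, 0.878 and 24.2 CPM without replicate 3. Without MPS VII day 9 replicate 3 the r of these 6 genes was 0.916 to 0.935, an alternative added after the data were seen.

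With the group means removed from both sides, 0 genes outside the cluster reached an r over 0.9. The highest was 0.868, for a gene on chromosome 7 from 1400668 to 1424651, whose r over the undivided values was 0.406. Its means differed little between groups, at 53.0 to 69.8 CPM. The upper end was MPS VII dogs of day 9, at 69.8 CPM ± 23.8 (SD, n = 5), or 58.3 CPM ± 4.97 without replicate 3 (SD, n = 4). The next were genes on chromosome 20 from 57783153 to 57786954 (r = 0.858), chromosome 24 from 26774177 to 26801096 (r = 0.845) and chromosome 18 from 51297485 to 51313753 (r = 0.841). Of these, the gene on chromosome 24 also followed the cluster between groups, with an r of 0.912 over the undivided values and means of 7.98 CPM ± 1.02 and 18.04 CPM ± 2.90 in controls and 60.8 CPM ± 15.4 and 97.9 CPM ± 33.5 in MPS VII dogs. The gene on chromosome 18 did not, with an r of -0.03. Without MPS VII day 9 replicate 3 the r of these 4 genes, with group means removed, was 0.780 to 0.836. The MPS VII day 9 mean of the gene on chromosome 24 was then 53.8 CPM ± 8.24 (SD, n = 4). No names or roles are given for these genes, since no table used here annotates their identifiers.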

How the data were processed

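Polyadenylated RNA was sequenced with a stranded kit in paired 100-base reads and mapped to the CanFam3.1 genome (Ensembl build 77), as the labels' protocols state. Tools listed in the submitters' processing notes, without their roles, are STAR 2.4.0j, HTSeq, edgeR, CASAVA 1.8.2 and bcl2fastq. The authors deposited raw counts per gene, with exon positions and lengths per the file headers; no source used here gives the strand setting or how multiply matching reads were handled, and every count column belonged to 1 sample. Whether animals shared a litter was not used. The members, lists and tests were chosen with earlier results of these data known.

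edgeR 4.0.16 (R 4.3.3) was run on the counts: filterByExpr on the 4 groups (14550 of 24580 genes kept; the rest held 0.0413% of counts), TMM, 1 quasi-likelihood fit with 1 mean per group over 20 libraries (robust), and Benjamini-Hochberg adjustment over all tested genes at 0.05. Each SE was taken as |log2 fold change| / √F. Log2 CPM used a prior count of 2. Permutation tests used 100000 resamples. Neighbours were the 5 annotated genes on each side, and the genes most alike were the 6 with the highest r and the 4 after removal of group means. Alternatives were median-ratio scaling, no filter, DESeq2 1.42.0, fits of only the groups compared, halved counts, thinned libraries and each library left out. The fit and the correlation were tested on simulated data. Replicates share only an arbitrary number, and p-values measure the spread between these libraries. Lists of cell type markers and complement genes could not be applied, because 0 identifiers matched a symbol.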

Additional observations from a re-analysis of the deposited data

Results flagged for a closer look

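In controls of day 14, the low-coordinate gene ENSCAFG00000032344 stood at 17.8 CPM in replicate 2, far from the 7.98 to 10.4 CPM of the rest of its group. In MPS VII dogs of day 9 the same gene stood at 31.3 CPM in replicate 3, against 8.92 to 15.3 CPM in the others. The gap to the next library was 0.750 and 0.713 of the range of the group, above the critical value for 5 samples. Of 16 combinations of group and gene, the summed level included, 2 were flagged this way, and chance flags about 1 in 20. The summed level is made of the members, and the members varied together between animals. The 16 are therefore not separate, and nothing is read from their number.

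The age change of ENSCAFG00000032344 differed between genotypes, at -1.67 ± 0.44 (SE) on the log2 scale for MPS VII dogs minus controls. The call rested on a threshold that was missed in 13 of 25 alternatives, and the gene was chosen with its pattern known.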

How the results depend on the processing

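The log2 fold changes of the 3 members between genotypes at day 9 and between ages in controls kept their direction and call in all 26 alternatives. Calls of the members describe the fits only, since the members were chosen with these contrasts known. The middle gene's call for genotype at day 14 (0.80) was lost without MPS VII day 14 replicate 2 or 4, at a lowest of 0.69 over left-out libraries and a highest of 0.95. The low-coordinate gene's value there ranged from -0.0032 to 0.48, negative without MPS VII day 14 replicate 4. The middle gene's age change in MPS VII dogs (-0.09) ranged from -0.21 to 0.19, and turned positive without MPS VII day 9 replicate 3 (0.19) or day 14 replicate 3 (0.0018) or 5 (0.096). The low-coordinate gene's difference of the age change (-1.67, adjusted p = 0.0399) lost its call without a filter (-1.65) and in 12 of 20 fits without 1 library, over a range of -1.86 to -1.31 and adjusted p of 0.00494 to 0.0804 over all alternatives. With only the groups compared in the fit, genes called fell from 1220 to 711 for genotype at day 9 and from 3297 to 1466 for age in MPS VII dogs, with fewer samples by construction. For the difference of the age change, 474 genes became 932 with DESeq2 and 199 to 759 over left-out libraries; the cause was not tested, and the fit of only the groups compared uses all libraries there and is no alternative. Of tested neighbours, 6 values changed sign over left-out libraries. For genotype at day 9 they were the gene from 76428203 (-0.18 to 0.35) and from 76771456 (-0.23 to 0.032). For age in MPS VII dogs they were the genes from 76771456 (-0.11 to 0.14), 77153276 (-0.045 to 0.074) and 77116779 (-1.58 to 0.51). In the difference of age changes it was the gene from 77212092 (-0.46 to 0.070). MPS VII day 9 replicate 3 turned 4 of the 6, replicate 5 the first and replicate 1 that from 77116779. Group means of CPM, the summed level included, moved by less than 1 SD, and the 3 correlations kept their call, in every alternative run for them. Counts of 76 to 228 per member in controls of day 9 limit the precision there. No paired analysis was made. The groups hold separate animals, the labels give only animal names, and whether animals shared a litter was not used.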
